A study of Mus musculus with 108 samples.

Results

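Gm26917, Gm42418, AY036118 and Lars2 are 4 of the 55573 genes counted in single mouse oocytes, and they are described here because the first 3 lie in a stretch of chromosome 17 that carries a copy of ribosomal RNA sequence. The rows were picked by gene symbol. Gm26917 had been singled out for its high counts in oocytes without Exosc10 in polyA libraries at the 2 immature stages, and for the spread of its control values there, so those values are given as a description without a test. Lars2, a protein-coding gene on chromosome 9, was listed with them and serves as a member outside the ribosomal stretch.

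Each library came from 1 oocyte of a control female or of a female whose oocytes carried a knockout of Exosc10 (cKO, an oocyte-specific knockout), and the labels name no Cre driver, allele or age. In polyA libraries, GV (germinal vesicle, the immature stage with an intact nucleus) was represented by 15 cKO oocytes and 7 controls, GV3h (3 h in culture) by 11 cKO and 8 controls, and MII (ovulated eggs, taken from oviducts) by 15 cKO and 8 controls. The RiboMinus libraries, primed with random hexamers after removal of ribosomal RNA, comprised 7 cKO oocytes with 8 controls (GV) and 4 cKO eggs with 3 controls (MII). A further file of counts over 7 segments of the rRNA precursor existed for each of those 22 oocytes, made from total RNA without ribosomal depletion. The oocytes of a group came from 2 or 3 females, except that the 3 RiboMinus MII controls came from 1 female. In that comparison genotype and female cannot be told apart. Oocytes of 1 female are not independent samples, so the p-values below measure the spread between oocytes.

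RNA polymerase I makes ribosomal RNA as 1 long precursor in which the 18S, 5.8S and 28S rRNAs are joined by spacers: the 5′ external transcribed spacer (5′ETS) ahead of 18S, the internal spacers ITS1 and ITS2, and the 3′ external spacer. Nucleases remove the spacers while the ribosome is assembled, and EXOSC10 is a 3′ to 5′ exoribonuclease of the nuclear RNA exosome, which trims precursor ends and breaks down excised spacer RNA. A growing oocyte stores very many ribosomes for the embryo. Lars2 encodes the leucyl-tRNA synthetase of mitochondria, the enzyme that charges mitochondrial tRNA with leucine.

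In the mouse build GRCm38 (mm10), with the GENCODE M21 annotation, Gm26917 (ENSMUSG00000097971) is a lincRNA of 1 exon and 3329 bases on the plus strand of chromosome 17, at chr17:39843013-39846341. A copy of 18S rRNA, 1849 bases at chr17:39846353-39848201, starts 11 bases past its end. Gm42418 (ENSMUSG00000098178), 1831 bases at chr17:39846958-39848788 on the plus strand, starts at position 606 of that 18S copy, holds 1244 of its bases and runs 587 bases past its end. AY036118 (ENSMUSG00000105361), 923 bases at chr17:39847113-39848035, is annotated on the minus strand and lies wholly inside Gm42418. All 923 of its bases are the reverse complement of bases 156 to 1078 of Gm42418, which are positions 761 to 1683 of the 18S copy. In the RefSeq gene table of the same build, Gm42418 is listed as a synonym of Rn18s-rs5, a related sequence of 18S rRNA. Lars2 (ENSMUSG00000035202) spans chr9:123366927-123462666 on the plus strand in 21 exons.

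The sequences below show the 3 places where the ribosomal members meet the 18S rRNA copy, all from GRCm38 chromosome 17. The first pair is the end of Gm26917 (chr17:39846282-39846341, plus strand) and the start of the 18S copy (chr17:39846353-39846412, plus strand), which carries the 5′ end of 18S rRNA.
End of Gm26917: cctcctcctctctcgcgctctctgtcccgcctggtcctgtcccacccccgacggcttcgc
Start of the 18S copy: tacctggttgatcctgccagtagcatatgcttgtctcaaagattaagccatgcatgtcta
Gm42418 crosses the other end of 18S at chr17:39848162-39848241 (plus strand), where capitals mark the last 18S bases and lower case the spacer that follows.
18S end and spacer within Gm42418: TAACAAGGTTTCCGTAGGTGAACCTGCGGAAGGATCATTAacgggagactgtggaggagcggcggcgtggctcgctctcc
The third pair is 1 stretch, chr17:39847996-39848035, read on the strand of AY036118 (minus) and on that of Gm42418 (plus).
Start of AY036118: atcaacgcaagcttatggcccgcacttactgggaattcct
Gm42418 on the other strand: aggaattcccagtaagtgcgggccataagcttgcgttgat

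Gm26917 therefore sits where a precursor has its 5′ETS, and Gm42418 and AY036118 sit in 18S sequence. Their base composition differed. GC content was 69.1% in Gm26917, 60.2% in Gm42418, 54.4% in AY036118 and 51.2% in the 3894-base Lars2 transcript. None of them carries a long run of adenines: the longest was 4 bases in Gm26917 and AY036118 and 6 bases in Gm42418 and Lars2, and 87.5% and 37.7% of the 141767 annotated transcripts hold a run at least as long. In the 3′ UTR of Lars2, 72 bases matched the predicted gene Gm15564, one of the rRNA-related symbols listed for comparison, at 98.6% identity. The gene AA474408 matched the same UTR over 97 bases at 94.8% identity, partly overlapping that match, and over 50 bases at 96.0%.

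Counts of the 2 overlapping genes cannot be read as separate. The annotated gene CT010467.1 (ENSMUSG00000106106, minus strand, chr17:39846353-39848827), covers the same 18S copy and more. In 86 of 86 libraries its count was above that of Gm42418, which was above that of AY036118. AY036118 had 0.839 to 0.929 counts for each count of Gm42418 in polyA libraries (median 0.910) and 0.667 to 0.843 in RiboMinus libraries (median 0.777), although it is 50.4% as long. Gm42418 in turn had 0.570 to 0.703 counts for each count of CT010467.1 in polyA libraries and 0.261 to 0.423 in RiboMinus libraries. The strand setting of the counting is not given in the sources used here, so reads of the 2 strands cannot be told apart, and reads of other rRNA copies may be counted on these genes.

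The gene libraries held 4638718 to 8735914 counts in polyA oocytes and 12319658 to 62675760 in RiboMinus oocytes, and the rRNA files 482609 to 1473517. Together the 4 members took 0.373% to 2.71% of the counts of a polyA library and 0.296% to 0.957% of a RiboMinus library. Exosc10 matched the label of every oocyte: the highest cKO oocyte reached 8.28 CPM (counts per 1000000 counts of the library, scaled with TMM factors over all libraries of a type), and the lowest control had 43.0 CPM. All 10 oocyte markers averaged at least 1 CPM in both library types. None of 4 blood markers did. Markers of granulosa and cumulus cells summed to 67.8 to 173 CPM in polyA and 70.0 to 216 CPM in RiboMinus oocytes.

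Gm26917 was high in cKO oocytes and near 0 in most controls at both immature polyA stages. At GV the lowest of 15 cKO oocytes had 140 CPM, the median 432 and the highest 1115. The 7 controls split by female: the 3 oocytes of V856 had 101, 110 and 171 CPM, and the 4 of V889 had 0.144, 0.167, 0.724 and 3.69 CPM. So 14 of 15 cKO oocytes were above the highest control, and the control level depended on which female was read. The fitted difference of 3.13 (log2, SE 0.79) was 8.60 without V856 and 1.89 without V889. The share of reads outside genes was 10.9% to 11.2% in the V856 oocytes and 9.88% to 11.1% in those of V889, where the oocyte at 3.69 CPM had the highest share. Gm26917 and this share had r of 0.825 (rho 0.857) over the 7 controls and 0.0213 (rho 0.0393) over the 15 cKO oocytes. The part of this share in the Gm26917 values was not tested.

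At GV3h the gap was wider, with no overlap. The 11 cKO oocytes ran from 67.1 through a median of 451 to 1073 CPM. The 8 controls ran from 0 through 0.194 to 0.717 CPM, which is 0 to 4 counts a library and 12 counts in all. Female means among the cKO oocytes were 892 CPM in V946, 457 in V993 and 200 in V983, so females of 1 genotype differed by several fold. The fitted log2 difference was 10.82 (SE 0.67), a value that with so few control counts depends on the prior count of the fit and is no measured fold.

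At MII the polyA level of Gm26917 was low in both genotypes. This comparison was not used to choose the gene. The 15 cKO eggs ran from 0 through a median of 3.66 to 116 CPM, with a mean of 13.8 ± 31.2 (SD, n = 15), and the 8 controls from 0 through 0 to 0.842 CPM, with 6 at 0 counts. The 2 highest eggs, at 116 and 54.1 CPM, both came from V897. In all, 12 of 15 cKO eggs were above the highest control. The controls held 7 counts in all, and Gm26917 passed the filter on low counts only through the cKO eggs, so its log2 fold change of 6.43 (SE 1.35) is a description with no test. Without V897 its counts fell under that filter.

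**Figure D1:**
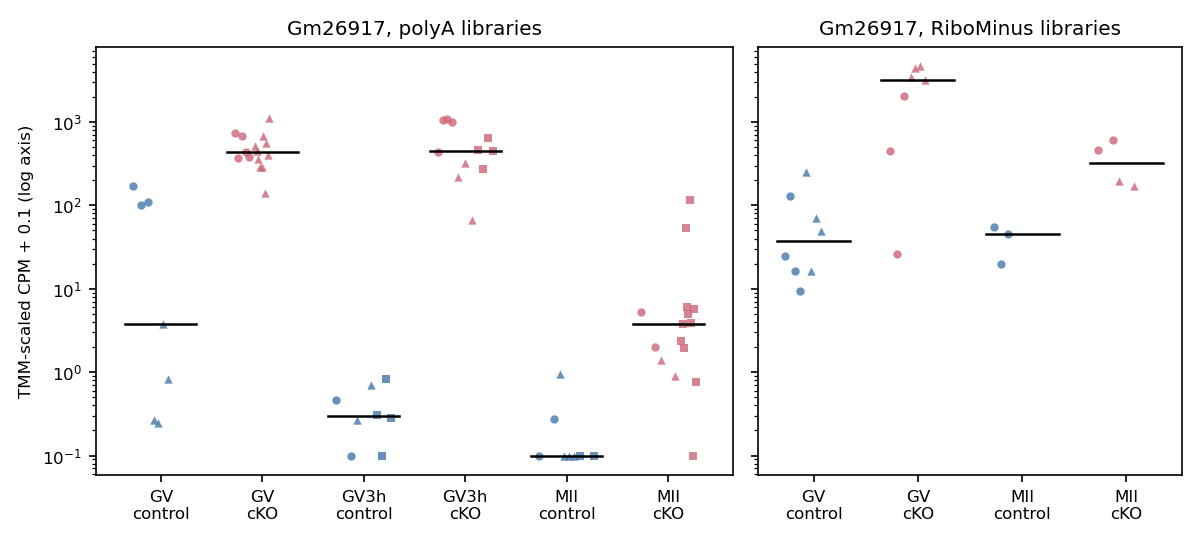
CPM of Gm26917 in every oocyte on a log axis (a small constant was added so that 0 can be drawn), by library type, stage and genotype; blue is control, red is cKO, marker shapes tell females of a group apart and the line is the median. The cKO oocytes lie above all controls at polyA GV3h and RiboMinus MII, the controls at polyA GV fall into 2 levels by female, and 1 RiboMinus GV cKO oocyte lies among the controls.

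RiboMinus libraries, which were not used to choose Gm26917, showed it higher in cKO oocytes at GV. The 7 cKO oocytes ran from 26.1 through a median of 3217 to 4623 CPM (mean 2602 ± 1830, SD), and the 8 controls from 9.39 through 37.0 to 254 CPM (mean 71.1 ± 83.7). Again the females differed. The 4 oocytes of V1131 had 3217 to 4623 CPM, and the 3 of V1126 had 26.1, 448 and 2046 CPM. In all, 6 of 7 cKO oocytes were above the highest control, and the oocyte at 26.1 CPM was inside the control range. Gm26917 rose by a log2 of 5.18 (SE 0.89, edgeR adjusted p 0.000878), the only call among 4 members where 37.6% of all genes were called. With counts summed per female, 2 against 2, the value was 5.02 and the edgeR adjusted p 0.124, in a fit that called 3 of 20094 genes. Without V1131 it was 3.57 with an edgeR adjusted p of 0.0698. Gm26917 moved with the share of reads outside genes, with r of 0.762 (rho 0.500) over the 7 cKO oocytes and 0.789 (rho 0.857) over the 8 controls. That share was 9.16% (in the oocyte at 26.1 CPM) to 12.4% in cKO oocytes and 8.34% to 12.0% in controls, and its part in the result was not tested.

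In RiboMinus eggs at MII the groups of Gm26917 did not overlap, and neither did those of the other members, CT010467.1 or Exosc10. The share of all genes without overlap was not computed, so this is not read as a trait of the members. The 4 cKO eggs had 171, 195, 457 and 610 CPM of Gm26917 (mean 358 ± 212, SD), and the 3 controls 19.8, 45.6 and 55.1 CPM (mean 40.2 ± 18.3). The log2 fold change was 3.23 (SE 0.49, edgeR adjusted p 0.000953). It stayed between 2.24 and 3.82 when either cKO female or any 1 egg was left out. The control female could not be left out, since all 3 control eggs were hers. All 4 members were called in this comparison, where 23.7% of all genes were called. Besides the single control female, the groups differed in depth, with 20678209 to 62675760 counts in cKO eggs and 16220993 to 20447150 in controls. Summed markers differed too. Oocyte markers gave 7883 to 10942 CPM in cKO eggs and 12076 to 13101 in controls. Granulosa and cumulus markers gave 70.0 to 106 CPM in cKO eggs and 146 to 165 in controls, theca markers 2.78 to 8.54 and 0 to 0.199, and blood markers 0.861 to 15.9 and 0. The part of these differences in the member results was not tested.

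Levels per kilobase of transcript are given side by side. They are no ranking of the genes, since Gm42418 overlaps other counted genes, reads of other rRNA copies may be counted on it, and rRNA was removed from the RiboMinus libraries. In RiboMinus GV cKO oocytes the mean of Gm26917 was 782 CPM per kb, against 21.4 in controls, and that of Gm42418 was 1299 and 1511. In polyA libraries Gm26917 averaged 147 CPM per kb at GV and 164 at GV3h in cKO oocytes, where Gm42418 had 2065 and 1780. Read per 1000 counts of Gm42418 in the same library, Gm26917 had a median of 1501 counts in RiboMinus GV cKO oocytes (15.9 to 1967) and 15.9 in controls (2.06 to 106). The higher level of Gm26917 was thus also present relative to Gm42418. By mean CPM, the order of the polyA groups was GV3h cKO, GV cKO, GV control, MII cKO, GV3h control and MII control, and the ranges of each pair of neighbours in that order overlapped.

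The rRNA files allow Gm26917 to be set beside the precursor segments of the same named oocyte. Segments were delimited by position: the 5′ETS is bases 1 to 4007 of the precursor, 18S 4008 to 5877 and ITS1 5878 to 6877. The precursor sequence itself was not compared with Gm26917. In counts per 1000000 rRNA counts (CPM of the rRNA total), the 5′ETS ran from 123 through a median of 8708 to 11637 in GV cKO oocytes and from 27.1 through 95.8 to 525 in GV controls, a ratio of means of 38.3. For Gm26917 the ratio of means in the same oocytes was 36.6. At MII the 5′ETS had 491 to 819 in cKO eggs and 30.3 to 79.4 in controls, and the groups did not overlap, as for Gm26917. The same held for 18S, ITS1, 5.8S, ITS2 and 28S, with ratios of means of 0.797, 18.3, 1.30, 0.310 and 1.12. It also held for every member, so lack of overlap at MII does not set the 5′ETS and Gm26917 apart. In each case these are values of 2 assays of oocytes that share a female and oocyte number, and whether 1 oocyte's RNA was divided between them is not given in the sources used here.

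Within each genotype, oocytes with more Gm26917 also had more 5′ETS. On the log2 scale of these values plus 1, Pearson's r was 0.994 and Spearman's rho 0.964 over 7 GV cKO oocytes, and 0.986 and 0.929 over 8 GV controls. Leaving out the 2 oocytes farthest from the median 5′ETS gave r of 0.932 and 0.968. After taking away each female's mean, r was 0.989 and 0.990, so the relation was also present among oocytes of 1 female. The cKO oocyte inside the control range, V1126_3, picked out after its values were seen, was low in both: 26.1 CPM of Gm26917 and 123 CPM of 5′ETS, with 31.6 CPM of ITS1. Its Exosc10 level was 4.20 CPM, inside the cKO range. These relations are descriptions over 15 oocytes of 4 females, and no p-value is attached to them.

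ITS1, a spacer on the other side of 18S, followed Gm26917 less evenly. In controls r was 0.941 and rho 0.881, and 0.864 without the 2 farthest oocytes. In cKO oocytes r was 0.971 but rho 0.429, and r was 0.829 without V1126_3 and −0.509 without the 2 farthest oocytes, so that relation rests on those oocytes. The ratio of mean ITS1 between cKO and control GV oocytes was 14.4, and 6 of 7 cKO oocytes were above every control. For the other segments r was also computed with the segment per 1000000 gene counts, after each female's mean was taken away, without the 2 farthest oocytes and, in cKO oocytes, without V1126_3. The ranges below cover these settings and the first value. With ITS2, between 5.8S and 28S, r of Gm26917 was 0.654 in cKO oocytes (0.396 to 0.781) and 0.851 in controls (0.210 to 0.851). With the 3′ETS, at 0 to 23 counts a GV library, it was 0.0995 (−0.360 to 0.371) and 0.793 (0.747 to 0.856). Its sign in cKO oocytes turned with the setting for every mature rRNA. With 5.8S r was −0.301 (−0.909 to 0.506, the highest without V1126_3), with 28S 0.160 (−0.664 to 0.641, the highest without V1126_3) and with 18S −0.293 (−0.648, without V1126_3, to 0.279). In controls the values were 0.313 (−0.668 to 0.313), 0.275 (−0.251 to 0.275) and −0.290 (−0.433 to −0.116). Gm42418, of whose bases 1244 are 18S sequence and 587 lie past the 18S end, had r of 0.459 with 18S in cKO oocytes (0.364 to 0.785, the highest without V1126_3) and 0.213 in controls (−0.155 to 0.618). AY036118 had 0.695 (0.542 to 0.798) and 0.316 (−0.0455 to 0.634), and Lars2 −0.285 (−0.506 to 0.378) and −0.105 (−0.454 to 0.419). With 28S in cKO oocytes Gm42418 had −0.554 (−0.772 to 0.283) and AY036118 −0.736 (−0.774 to 0.227), and with 5.8S −0.636 (−0.650 to 0.143) and −0.558 (−0.709 to 0.204). Of these values only those of Gm26917 with ITS2, of Gm26917 with the 3′ETS and 18S in controls, and of Gm42418 and AY036118 with 18S in cKO oocytes kept 1 sign over the settings. The RiboMinus libraries were made after removal of rRNA and the rRNA libraries without it.

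Gm42418, which covers the 3′ part of the 18S copy and 587 bases past its end, was lower in cKO oocytes at both immature polyA stages. At polyA GV the 15 cKO oocytes ran from 2177 through a median of 3941 to 5354 CPM and the 7 controls from 2856 through 5304 to 7655 CPM. The ranges overlapped, with 3 of 7 controls above the highest cKO oocyte. Gm42418 fell by 0.51 on the log2 scale (SE 0.17, edgeR adjusted p 0.0162) and AY036118 by 0.54 (SE 0.17, edgeR adjusted p 0.0135). These 2 of 3 tested members were called where 40.4% of all genes were. Both calls ended with counts summed per female (edgeR adjusted p 0.234 and 0.226), with a random female block in voom (adjusted p 0.328 and 0.315) and with scaling by library totals (edgeR adjusted p 0.0830 and 0.0697). They also ended without control female V889 or without cKO female V888, where the edgeR adjusted p of Gm42418 was 0.0776 and 0.0673 with log2 values of −0.63 and −0.43, and that of AY036118 was 0.074 and 0.071.

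Among the polyA stages, the fall of Gm42418 was largest at GV3h. The 11 cKO oocytes ran from 1265 through a median of 3325 to 5149 CPM (mean 3259 ± 1198, SD), and the 8 controls from 5080 through 5996 to 6675 CPM (mean 5906 ± 633), so 6 of 8 controls were above every cKO oocyte. All 3 cKO females (means 2381, 3389 and 4257 CPM) lay under all 3 control females (5764, 5902 and 6056 CPM). Gm42418 fell by 0.87 (log2, SE 0.19, edgeR adjusted p 0.000419), and AY036118 by 0.89 (SE 0.18, edgeR adjusted p 0.000293). Again 2 of 3 tested members were called, with 55.5% of all genes called. CT010467.1, which overlaps Gm42418, fell by 0.90 and its groups did not overlap. Gm42418, AY036118 and CT010467.1 overlap, so these are not read as separate observations. Libraries held 5476376 to 8415126 counts in cKO oocytes and 4638718 to 5728197 in controls, and the part of depth in these values was not tested.

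At polyA MII neither gene was called, where 37.6% of all genes were (edgeR quasi-likelihood test, Benjamini-Hochberg adjusted p under 0.05). Gm42418 averaged 6900 ± 3211 CPM (SD, n = 15) in cKO eggs and 7489 ± 3249 CPM (n = 8) in controls, with ranges of 3192 to 16220 and 3439 to 12628 CPM. The log2 difference was −0.17 (SE 0.24, edgeR adjusted p 0.618), and −0.17 for AY036118 (SE 0.24, edgeR adjusted p 0.628). With each female left out in turn the values ran from −0.74 (without cKO female V897, edgeR adjusted p 0.102 and 0.105) to −0.06, and neither gene was called. The spread between eggs was large in both genotypes. Summed oocyte markers did not overlap at this stage, with 21844 to 27200 CPM in cKO eggs and 18965 to 21803 CPM in controls, and their part in these values was not tested.

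In RiboMinus GV oocytes the mean of Gm42418 was 2378 ± 438 CPM in the 7 cKO oocytes and 2767 ± 762 CPM in the 8 controls (SD), and that of AY036118 1707 ± 347 and 2223 ± 667 CPM. The log2 differences were −0.23 (SE 0.16, edgeR adjusted p 0.263) and −0.39 (SE 0.17, edgeR adjusted p 0.0729), which did not pass the threshold. Without cKO female V1126, AY036118 had −0.52 and passed (edgeR adjusted p 0.0179). In the 4 RiboMinus MII cKO eggs Gm42418 had 1869, 1877, 2088 and 2261 CPM, and in the 3 controls 2914, 4481 and 4685 CPM. Every cKO egg was below every control, in a comparison where the groups of every member were apart. Gm42418 fell by 0.93 (log2, SE 0.22, edgeR adjusted p 0.0096). AY036118 had 1457, 1492, 1638 and 1734 CPM in cKO eggs and 2215, 3315 and 3697 CPM in controls, and fell by 0.90 (SE 0.22, edgeR adjusted p 0.0114). Leaving out control egg V1145_2 or V1145_3 ended the calls, with edgeR adjusted p-values of 0.0578 and 0.0606 for Gm42418 and 0.0602 and 0.0743 for AY036118.

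Lars2 was not called between genotypes in any polyA comparison. At GV the cKO oocytes ran from 175 through 231 to 341 CPM and the controls from 190 through 269 to 315 CPM. At GV3h the values were 149 through 207 to 329 and 200.8 through 272 to 325 CPM, and at MII 195 through 326 to 516 and 179 through 240 to 441 CPM. The ranges overlapped at each stage, and log2 differences were −0.11 (SE 0.14), −0.31 (SE 0.13) and 0.22 (SE 0.18), with edgeR adjusted p-values of 0.542, 0.0542 and 0.37. At GV3h Lars2 passed the threshold without control female V951 (−0.36, edgeR adjusted p 0.0479) or cKO female V983 (−0.46, edgeR adjusted p 0.00193). At RiboMinus GV, the 7 cKO oocytes had a mean of 82.3 ± 13.2 CPM and the 8 controls 67.4 ± 32.5 CPM (SD), which is a log2 difference of 0.28 (SE 0.21, edgeR adjusted p 0.293). Without control female V1132 it was 0.60 (edgeR adjusted p 0.0308).

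At RiboMinus MII, Lars2 was higher in cKO eggs. They had 84.5, 86.4, 127 and 228 CPM, and the 3 controls 63.5, 64.4 and 66.1 CPM. The groups did not overlap, as for the other members in this comparison. Lars2 rose by a log2 of 1.09 (SE 0.33, edgeR adjusted p 0.0313). The 2 highest eggs were both of V1166, and without that female the difference was 0.45 (edgeR adjusted p 0.123). The voom fit with a female block gave 0.94 (adjusted p 0.0826). Leaving out any 1 control egg gave 1.08 to 1.11, with edgeR adjusted p-values of 0.0927 to 0.103. Without V1166_1 or V1166_2 the difference was 1.11 and 0.68, with edgeR adjusted p-values of 0.0554 and 0.0505.

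**Figure D2:**
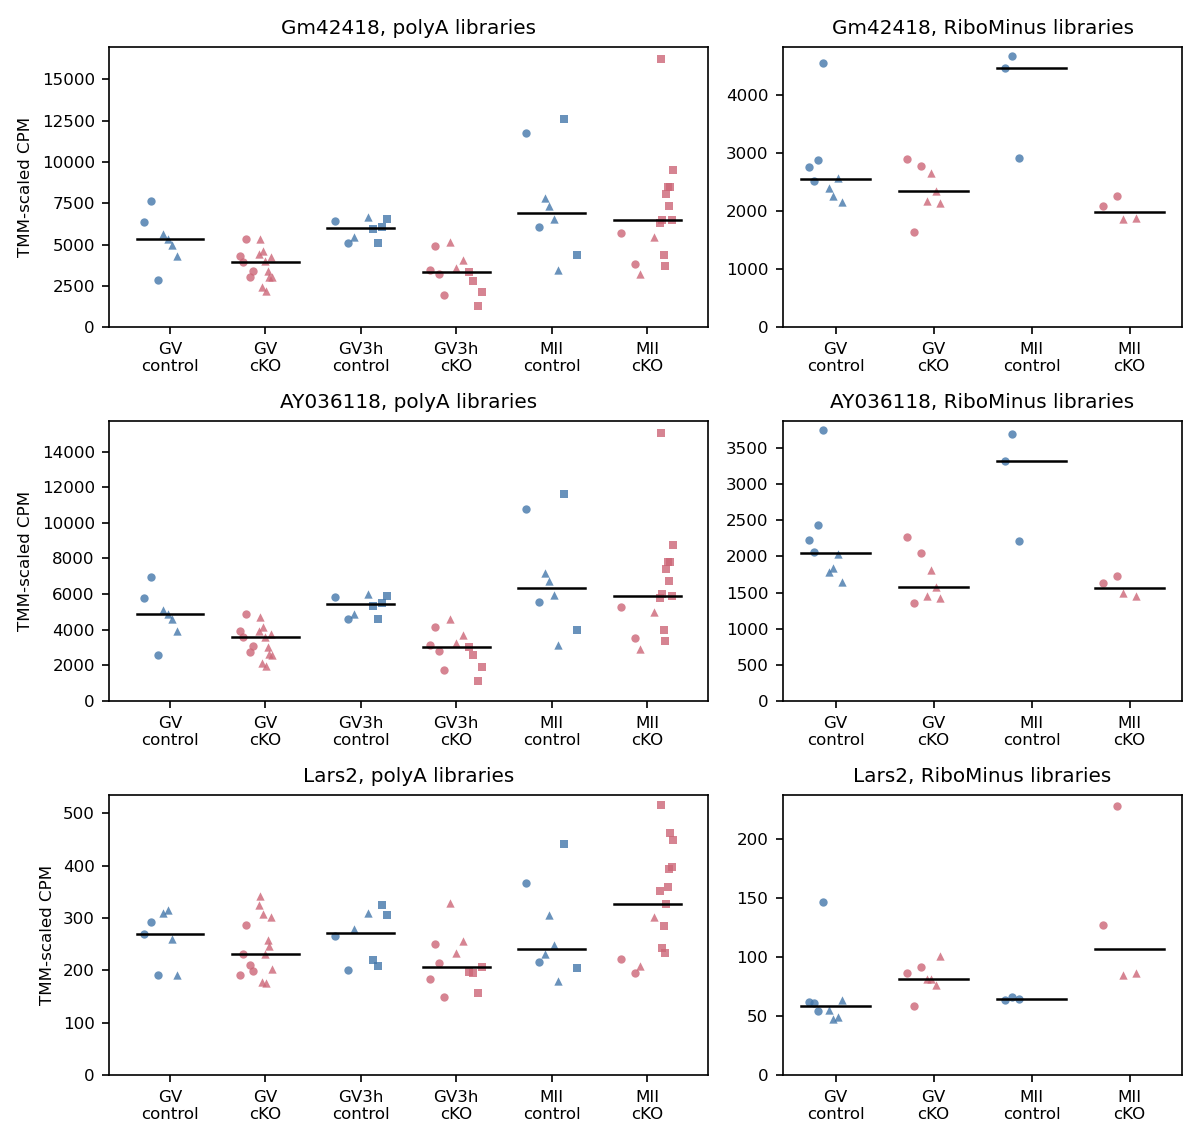
CPM of Gm42418, AY036118 and Lars2 in every oocyte on linear axes from 0, by library type, stage and genotype (blue control, red cKO, marker shape for the female, line at the median). Gm42418 and AY036118 show the same pattern, with cKO oocytes below most controls at polyA GV3h and below all controls at RiboMinus MII, and the groups of Lars2 are apart only at RiboMinus MII.

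**Figure D3:**
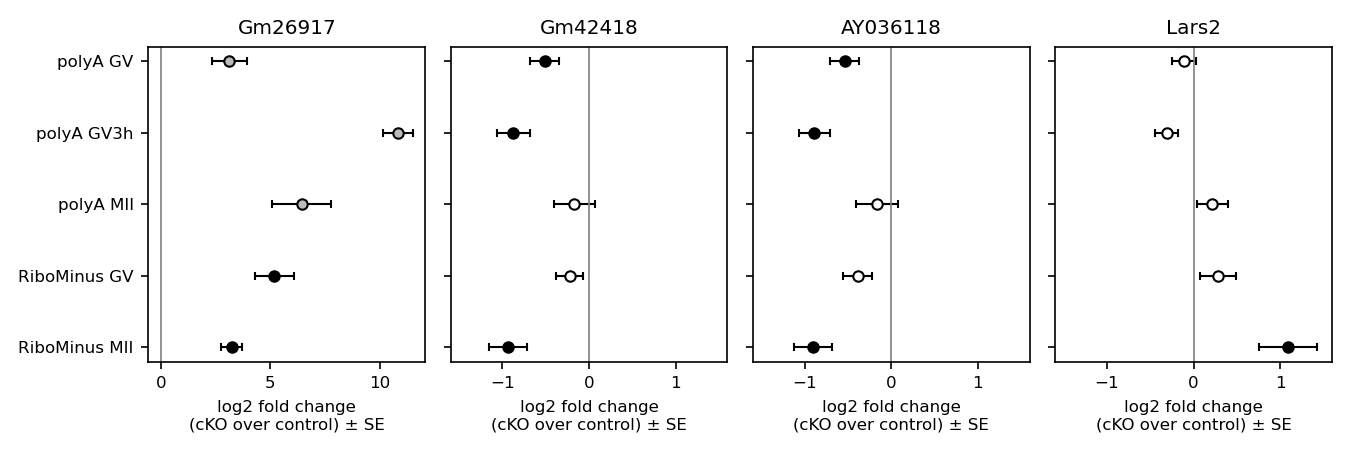
Log2 fold change of each member in cKO against control oocytes in 5 comparisons, with SE bars; filled points have an edgeR adjusted p under 0.05, white points do not and grey points were not tested, at polyA GV and GV3h because those values chose the gene and at polyA MII because the controls held too few counts. Gm26917 is above 0 in all 5, and Gm42418 and AY036118 are below 0 in all 5.

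Between stages, no tested member passed the threshold after 3 h of culture. In polyA controls the GV3h to GV differences were 0.15 for Gm42418, 0.14 for AY036118 and 0.01 for Lars2 (log2, edgeR adjusted p 0.757 to 0.981), and in cKO oocytes −0.21, −0.22 and −0.19 (edgeR adjusted p 0.566 to 0.656). None of these 6 values was called, where 0.519% and 0.602% of all genes were called in controls and in cKO oocytes. With 1 female left out the genes called ran from 49 to 376 in controls (66 with all, the highest without V856) and from 34 to 1548 in cKO oocytes (86 with all, the highest without V857), and counts summed per female called 2 and 0. In cKO oocytes Gm26917 differed by 0.15 between GV3h and GV, a value given without a test.

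From GV to MII the polyA level of Gm26917 in cKO oocytes was lower by 5.18 (log2, SE 0.63, not tested), from a median of 432 to 3.66 CPM. The difference was −7.69 without MII female V897, −7.37 in the voom fit and −5.83 with counts summed per female. Over the same step Gm42418 rose by 0.85 (SE 0.17, edgeR adjusted p 5.9e-05), AY036118 by 0.88 (SE 0.18, edgeR adjusted p 3.74e-05) and Lars2 by 0.40 (SE 0.13, edgeR adjusted p 0.00756) in cKO oocytes. These 3 of 3 tested members were called where 74.8% of all genes were. With counts summed per female the values were 0.63, 0.66 and 0.27 and none was called (edgeR adjusted p 0.104, 0.0916 and 0.43), and without MII female V897 they were 0.29, 0.32 and −0.06 (edgeR adjusted p 0.215, 0.171 and 0.776). Scaling by library totals turned the sign of Lars2, to −0.04, and moved the median change of all genes in cKO oocytes from −0.171 to −0.619. In polyA controls Gm42418 differed by 0.49 (SE 0.25, edgeR adjusted p 0.0894), AY036118 by 0.50 (edgeR adjusted p 0.0849) and Lars2 by 0.06 (edgeR adjusted p 0.796). None was called there, against 63.4% of all genes, although counts summed per female called Gm42418 at 0.65 (edgeR adjusted p 0.0149) and AY036118 at 0.66 (edgeR adjusted p 0.0143). Without MII female V853, Gm42418 had 0.73 and AY036118 0.75 (edgeR adjusted p 0.0324 and 0.0306). Gm26917 had too few control counts for this test.

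In RiboMinus libraries the GV to MII difference of Gm26917 in cKO oocytes was −2.84 (SE 0.93, edgeR adjusted p 0.0522), which just missed the threshold, with medians of 3217 and 326 CPM. It was −1.22 without V1131 (edgeR adjusted p 0.52), −3.46 without V1126 (edgeR adjusted p 0.000281) and −3.03 without V1126_3 alone (edgeR adjusted p 0.00362), and the DESeq2 Wald test gave an adjusted p of 0.0134. It also passed with library totals (edgeR adjusted p 0.048), without a filter (edgeR adjusted p 0.0237) and with a mean of at least 50 counts (edgeR adjusted p 0.0473). In controls it was −0.83 (SE 0.71, edgeR adjusted p 0.413). Gm42418 rose by 0.55 in controls (SE 0.18, edgeR adjusted p 0.0222), the only call among 4 members where 30.9% of all genes were called. That call ended without GV female V1133 (0.32, edgeR adjusted p 0.273), egg V1145_2 (edgeR adjusted p 0.106) or egg V1145_3 (edgeR adjusted p 0.135), and in the DESeq2 Wald test (adjusted p 0.0826). In cKO oocytes it differed by −0.22 (edgeR adjusted p 0.401), and no member was called, against 16.1% of all genes. That share was 2770 genes, and 203 without V1131, up to 4150 with other females or eggs left out, and 0 with counts summed per female. AY036118 differed by 0.47 in controls (edgeR adjusted p 0.0602) and −0.10 in cKO oocytes (edgeR adjusted p 0.732), and Lars2 by −0.05 (edgeR adjusted p 0.903) and 0.69 (edgeR adjusted p 0.0792). AY036118 in controls passed without V1132 (0.74, edgeR adjusted p 0.00239) or V1145_4 (0.63, edgeR adjusted p 0.0288), in the voom fit (adjusted p 0.0137) or without a filter (edgeR adjusted p 0.0227), and Lars2 in cKO oocytes without V1167 (1.12, edgeR adjusted p 0.0148) or V1167_2 (0.85, edgeR adjusted p 0.0479).

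Whether the stage change differed between genotypes was tested as an interaction. In the edgeR test with all oocytes no tested member passed, where 0.0959% of genes did for GV to GV3h in polyA libraries, 14.7% for GV to MII in polyA and 14.8% in RiboMinus libraries. With a female or egg left out these 15, 2287 and 2837 genes became 1 to 604, 764 (without V889) to 4355 (without V888) and 1367 (without V1132) to 3826, and counts summed per female called 0 and 13 in the polyA interactions. The nearest was Gm42418 from GV to MII in RiboMinus libraries, at −0.77 (SE 0.27, edgeR adjusted p 0.0555). It passed without V1132 (edgeR adjusted p 0.0241), V1126 (−0.75, edgeR adjusted p 0.0456), V1145_4 (−0.96, edgeR adjusted p 0.0322) or V1126_3 (−0.83, edgeR adjusted p 0.0297). With all oocytes it also passed in the DESeq2 Wald test (−0.76, adjusted p 0.0453), with library totals (−0.75, edgeR adjusted p 0.0491) and with a mean of at least 50 counts (−0.79, edgeR adjusted p 0.0409). Gm26917 had −2.04 there (edgeR adjusted p 0.261, and 0.0484 at −2.63 without V1126), AY036118 −0.58 (edgeR adjusted p 0.172) and Lars2 0.74 (edgeR adjusted p 0.219). CT010467.1 passed, at −1.06 (SE 0.29, edgeR adjusted p 0.0171). All 3 control eggs behind these values came from 1 female.

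Among oocytes of 1 group, Gm42418 and Lars2 moved together in polyA libraries, and Gm26917 did not follow them in the cKO groups or in GV and MII controls. Pearson's r of Gm42418 and Lars2 was 0.787 in GV cKO oocytes (n = 15, rho 0.746), 0.777 in GV controls (n = 7, rho 0.679), 0.835 in GV3h cKO (n = 11, rho 0.845), 0.758 in GV3h controls (n = 8, rho 0.738), 0.858 in MII cKO (n = 15, rho 0.861) and 0.929 in MII controls (n = 8, rho 0.929). Gm26917 and Gm42418 had r of −0.0747, −0.337 and −0.0233 in the cKO groups at GV, GV3h and MII. In GV3h controls, where a library held 0 to 4 counts of Gm26917, its r was 0.743 with Gm42418 (rho 0.755) and 0.807 with Lars2 (rho 0.802). At RiboMinus GV, Gm42418 and Lars2 had r of 0.647 (rho 0.321) in cKO oocytes and 0.872 (rho 0.238) in controls. There Gm26917 had r of 0.555 (rho 0.0714) and −0.555 (rho −0.548) with Gm42418. With Lars2 it had 0.715 (rho −0.107) and −0.428 (rho −0.167). These points share libraries and females, and the values are descriptions.

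The genes whose CPM was most like each member across all oocytes of a library type were listed by Spearman's rho, over 64 polyA or 22 RiboMinus oocytes, among 10582 and 10510 genes of at least 5 CPM on average. For Gm26917 they were G2e3 (0.916), Mdn1 (0.906) and ENSMUSG00000095041 (0.892) in polyA libraries and Trmt10c (0.949), Bzw1 (0.940) and Ip6k1 (0.932) in RiboMinus libraries. These values include the genotype difference: on deviations from the mean of stage and genotype the polyA values were 0.492, 0.567 and 0.540, and the RiboMinus values 0.862, 0.861 and 0.800. For Gm42418 they were AY036118 (0.999), CT010467.1 (0.992) and Upf1 (0.786), and in RiboMinus libraries CT010467.1 (0.942), AY036118 (0.935) and Cenpf (0.802, and 0.290 on deviations). AY036118 had Gm42418, CT010467.1 (0.989 and 0.878) and, after these, Vps13a (0.790, and 0.651 on deviations) in polyA and 2700054A10Rik (0.788, and 0.423 on deviations) in RiboMinus libraries. Lars2 had Gm15564 (0.906), Gm42418 (0.783) and AY036118 (0.777) in polyA libraries, and Spin1 (0.844), Socs7 (0.827) and Crk (0.826) in RiboMinus libraries. On deviations the values of Spin1, Socs7 and Crk were 0.64, 0.624 and 0.573. Gm15564 is one of the genes that matched the 3′ UTR of Lars2, and its rho was 0.941 on deviations from the group means.

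Genes of the machinery that transcribes the rRNA precursor were set beside all genes. Of 15 RNA polymerase I genes tested, 4 rose and 3 fell in cKO oocytes at polyA GV, 7 and 5 at GV3h, and 4 and 3 at RiboMinus GV. At polyA MII 2 of 14 rose and 3 fell, and at RiboMinus MII 0 of 15 rose and 3 fell. The list's median log2 fold change was 0.04, 0.04, −0.08, 0.07 and −0.22 in polyA GV, GV3h and MII and RiboMinus GV and MII, beside 0.06, 0.03, 0.04, 0.00 and 0.13 over all tested genes. Taf1c, a subunit of the selectivity factor that places the polymerase on the rRNA promoter, rose by 3.11, 3.36 and 3.34 at polyA GV, polyA GV3h and RiboMinus GV. Ubtf, a factor that binds rRNA genes, rose by 2.29, 2.36 and 2.30 in the same comparisons. Polr1c, a subunit shared by RNA polymerases I and III, rose by 2.01, 2.29 and 1.58. Rrn3, which joins polymerase I to its promoter factors, had −0.65, −0.81 and −0.62 in the polyA comparisons at GV, GV3h and MII. Of all tested genes, 22% rose and 18.5% fell at polyA GV. The shares were 29.4% and 26.1% for polyA GV3h, 19% and 18.6% for polyA MII, 21.2% and 16.5% for RiboMinus GV, and 13.9% and 9.78% for RiboMinus MII. The list's counts at polyA GV, polyA MII and RiboMinus GV lay near these shares and are not read as a result about the list.

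Lars2 was set beside the other mitochondrial aminoacyl-tRNA synthetases. Of 17 tested, Lars2 included, 4 rose and 0 fell at polyA GV, where 22% of all genes rose and 18.5% fell. At GV3h 8 rose and 3 fell (29.4% and 26.1% of all genes), and at RiboMinus GV 5 and 1 (21.2% and 16.5%). At polyA MII 0 of 15 rose and 1 fell (19% and 18.6%). The list's median was 0.52 at polyA GV, 0.48 at GV3h, 0.09 at polyA MII and 0.64 at RiboMinus GV. Nars2, the mitochondrial asparaginyl enzyme, rose by 1.71, 2.49 and 2.23 at polyA GV, polyA GV3h and RiboMinus GV, and Ears2, the glutamyl enzyme, by 1.08 at polyA GV and 0.75 at RiboMinus GV. Lars, the cytosolic leucyl-tRNA synthetase, fell by 0.55 at polyA GV (edgeR adjusted p 0.0114) and 0.57 at GV3h (edgeR adjusted p 0.0152), and was not called at polyA MII (−0.32), RiboMinus GV (−0.29) or RiboMinus MII (−0.34).

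Other genes that resemble rRNA or repeats were listed for comparison. Of 7 rRNA-related symbols, Gm15564 and Mir6236 were found by symbol among the counted genes, and Rn18s-rs5 was counted under the name Gm42418. Neither Gm15564 nor Mir6236 was called in any of the 5 genotype comparisons. Of 13 repeat-like predicted genes, 1 was tested at each polyA stage and 0 were called there. All 6 of those tested at RiboMinus GV fell, among them Gm10800 (−4.51) and Gm10801 (−4.63), and 0 of 7 changed at RiboMinus MII. Of all genes, 16.5% fell at RiboMinus GV and 9.78% at RiboMinus MII, and without V1131 the calls at RiboMinus GV dropped from 5774 to 103 genes. From GV to MII 6 of the 10 repeat-like genes tested fell in RiboMinus controls (list median −4.08), where 15.8% of all genes fell. In cKO oocytes 0 of 8 were called, where 7.4% of all genes rose and 8.67% fell. Both falls share the RiboMinus GV controls, which came from 2 females. The mitochondrial 16S rRNA gene mt-Rnr2 fell by 0.48 at polyA GV3h (edgeR adjusted p 0.00793), by 1.03 at polyA MII (edgeR adjusted p 1.31e-06) and by 2.04 at RiboMinus MII (edgeR adjusted p 0.00106). The 12S gene mt-Rnr1 fell by 1.07 at RiboMinus MII (edgeR adjusted p 0.023).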

How the data were processed

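RNA of single oocytes was measured in 64 polyA, 22 RiboMinus and 22 rRNA libraries. The authors deposited raw counts per Ensembl gene ID and raw counts per rRNA precursor segment. Per the labels' protocols, polyA RNA was captured on oligo(dT) beads and amplified, and RiboMinus libraries were made with random hexamers. The submitters' processing notes name mm10, cutadapt 2.5, STAR 2.7.2a, SAMtools 1.9 and HTSeq 0.9.1 without their roles. The annotation release and strand setting are not given in the sources used here. Reads outside genes (the no-feature line) made up 5.85% to 14.2% of all reads listed in a gene file and were left out. Symbols were found for 55394 of 55573 IDs. Spike-in RNA was not analysed here, so every change is relative to the other genes of a library.

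Samples were grouped by library type, stage and genotype from their titles. The groups compared were tested with edgeR 4.0.16 (R 4.3.3) quasi-likelihood fits after the filterByExpr filter and TMM scaling. Benjamini-Hochberg adjustment ran over all genes tested, with a threshold of 0.05. All tests were two-sided, and the code was tested on simulated data. Alternatives used DESeq2 1.42.0, limma 3.58.1 voom with a random female, counts summed per female, other scalings and filters, and females or oocytes left out. Correlations used scipy 1.17.1. Named genes are the members, their 3 most alike genes per library type, and called genes of the lists. Exosc10 is the check of the labels, and CT010467.1 was added for its overlap. The members, lists and tests were chosen with earlier results of these data known. A result of 1 listed gene is not reported here.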

Additional observations from a re-analysis of the deposited data

Results flagged for a closer look

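For the 4 members in 6 groups of 4 to 10 oocytes, 24 sets of values in all, 4 sets in 2 groups held an oocyte that stood apart from the rest by Dixon's criterion, which chance flags in about 1 in 20 sets. In polyA MII controls, oocyte V853_1 had 0.842 CPM of Gm26917, which is 6 counts, and the next had 0.175 CPM. In RiboMinus GV controls, 1 oocyte, V1132_4, was the highest for 3 members. It had 4558 CPM of Gm42418 (next 2879), 3753 CPM of AY036118 (next 2428) and 146 CPM of Lars2 (next 63.8). Gm42418 and AY036118 overlap, so their 2 values are not read as separate observations.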

How the results depend on the processing

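The genotype fold changes kept their direction and side of the threshold, or moved by less than 1 SE where not tested, in 144 of 156 values under other tests, scalings, filters and replicate units, and in 95 of 119 with females or oocytes left out. No paired analysis was possible because the groups compared share no female and no oocyte. At polyA GV, scaling by library totals gave −0.36 for Gm42418, −0.38 for AY036118 and 0.0404 for Lars2. The voom fit gave −0.48 and −0.50 for the first 2 and 5.88 for Gm26917, and counts summed per female −0.54 and −0.55. At polyA MII, counts summed per female gave −0.10 for Lars2 and voom 4.52 for Gm26917. At RiboMinus GV they gave 5.02 for Gm26917, and at RiboMinus MII voom gave 0.94 for Lars2.

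With females left out, the polyA GV values ran from 1.89 to 8.60 for Gm26917, −0.63 to −0.43 for Gm42418 and −0.64 to −0.43 for AY036118. Lars2 ran from −0.46 to −0.17 at GV3h and −0.26 to 0.32 at MII, and Gm26917 from 6.06 to 7.79 at MII (without V897 it could not be fitted). At RiboMinus GV the ranges were 3.57 to 5.84 for Gm26917, −0.44 to 0.0063 for Gm42418, −0.63 to −0.11 for AY036118 and 0.0064 to 0.60 for Lars2. At RiboMinus MII, cKO females or single eggs were left out, but not the only control female. The ranges there were −1.12 to −0.80 for Gm42418, −1.09 to −0.74 for AY036118 and 0.45 to 1.54 for Lars2. Without oocyte V1126_3, chosen after seeing the data, Gm26917 at RiboMinus GV had 5.39. The cause was not tested.

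Stage changes that turned sign were Gm26917 in polyA cKO oocytes from GV to GV3h (voom −0.14, females left out −0.50 to 0.45), Lars2 from GV to MII in polyA controls (library totals −0.31, a mean of at least 50 counts −0.045, females left out −0.024 to 0.25) and in polyA cKO oocytes (library totals −0.044, females left out −0.061 to 0.66), and Lars2 in RiboMinus controls (voom 0.044, left out −0.34 to 0.25). With females or eggs left out, Lars2 from GV to GV3h in polyA controls ran from −0.038 to 0.074 and AY036118 in RiboMinus cKO oocytes from −0.26 to 0.012. Interactions that turned sign were polyA GV to MII: Gm26917 (voom −1.5, left out −2.21 to 4.74), Gm42418 (summed per female −0.019, left out −0.21 to 0.48), AY036118 (−3.29e-05, left out −0.19 to 0.50) and Lars2 (left out −0.13 to 0.54).

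Counts summed per female called 1 gene at polyA GV (5908 with oocytes), 2522 at polyA MII (4727) and 3 at RiboMinus GV (5774), and voom 1379 at polyA GV and 2725 at RiboMinus GV. With females or eggs left out, the calls ran from 2835 (without V889) to 6967 at polyA GV, 2325 (without V897) to 4623 at polyA MII, 103 (without V1131) to 8586 at RiboMinus GV and 2328 (without V1145_2) to 3835 at RiboMinus MII. Scaling by library totals moved the median fold change of all genes at polyA GV from 0.056 to 0.209 and at GV3h from 0.031 to 0.204.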
